A study of Mus musculus with 41 samples.

Results

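The genes described here encode the proteins of elastic fibres. They were chosen by name as 10 symbols, and the choice was made with measured values in view, since *Eln* has a large gain of ribosome footprints in mouse embryonic fibroblasts (MEFs) labelled *Upf2*-/-. The footprint difference in those cells, and the translation efficiency computed from it, are therefore given as descriptions without a test. The 10 genes are among 22438 genes with footprint values and 55385 genes with RNA values, and 51 of the 142552 transcripts with RNA values belong to them. All 10 were measured in both assays.

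Ribosome profiling counts the fragments of mRNA that translating ribosomes shield from nuclease, so that footprints on a coding sequence follow how much of it is being translated. *Hbs1l* and *Pelo* encode partners that rescue stalled ribosomes, and *Upf2* encodes a factor of nonsense-mediated decay (NMD), the pathway that degrades mRNAs with a premature stop codon. The study compared the loss of each gene. Footprints were sequenced from 3 *Hbs1l*-/- and 3 wild-type E8.5 embryo samples (C57BL/6NJ, 5 pooled embryos per sample), from P14 cerebella of 3 Atoh-Cre;*Hbs1l* cKO and 3 Atoh-Cre;*Hbs1l* +/+ mice (C57BL/6J), and from MEFs (C57BL/6). By the study's strain list, these cKO mice and the *Hbs1l*-/- MEFs were *Hbs1l* fl/-, and the *Pelo* and *Upf2* MEFs fl/fl. The Cre of the cerebellar cross acts in the granule cell lineage, so that other cells of the mutant tissue keep 1 allele of *Hbs1l* where controls have both. MEFs carried CAG-Cre ER and a conditional allele (cKO) of *Hbs1l*, *Pelo* or *Upf2*, with 3 footprint libraries for each mutant and 3 control libraries with CAG-Cre ER alone in the pool of that mutant. RNA was sequenced from MEFs in 1 further pool, with 3 control, 3 *Hbs1l*-/-, 2 *Pelo*-/- and 3 *Upf2*-/- libraries. All MEFs, controls included, had received Tamoxifen, and each MEF replicate came from a separate embryo. Cerebellar and MEF lines, controls included, also carried the n-Tr20 tRNA mutation of C57BL/6J.

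Libraries held 2634480 to 7298812 footprints for embryos, 10919139 to 22591768 for cerebella and 5782990 to 25607974 for MEFs, and 22713643 to 86425762 estimated RNA counts. *Hbs1l* and *Pelo* footprints were lower in every library of their own mutants than in every control. Gene-level *Upf2* went against its label: footprints lay between 114.4 and 118.4 CPM (counts scaled to the library total) in the libraries labelled *Upf2*-/- and between 46.98 and 57.79 in their controls, and RNA between 8.607 and 20.62 against 3.823 and 5.628 TPM (transcript abundance scaled for length and depth). Counts over a whole gene do not isolate the deleted exons, so these libraries are called by their label throughout. *Gadd45b*, a known NMD target, was at 169.6 to 173.4 TPM in them and at 35.67 to 43.06 in controls. MEF control libraries with the same number in different pools differed by about counting noise (chi-square per gene 1.10 to 1.19, where counting noise alone gives 1 and differently numbered controls gave 4.06 to 12.6). They were therefore taken as the same 3 control samples, and the comparisons of the 3 mutants share them. The *Hbs1l* and *Pelo* footprint and TE tests in MEFs thus use control samples that were in view when the genes were chosen. Their p values are not independent of that choice, above all for *Eln*.

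Elastic fibres give skin, lung and arteries their recoil. A core of cross-linked elastin, encoded by *Eln*, is laid down on a scaffold of microfibrils made of the fibrillins FBN1 and FBN2 with the microfibril-associated proteins MFAP4 and MFAP5. The fibulins FBLN5 and EFEMP2 (fibulin-4) bring tropoelastin, microfibrils and the cross-linking enzymes together, EFEMP1 (fibulin-3) is a related fibulin, and the copper enzymes LOX and LOXL1 oxidise lysines so that elastin is cross-linked. Fibroblasts and smooth muscle cells make most of these proteins.

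The transcript of the 10 genes that edgeR called higher in the RNA of libraries labelled *Upf2*-/- was an NMD-type transcript of *Efemp2* (ENSMUSG00000024909.15, chr19:5473954-5482517 of GRCm38, plus strand), and the sequences below show how it differs from a protein-coding transcript. Both were read from Gencode M21 transcripts and lie within chr19:5475408-5476108. In Efemp2-214, 46 bases at chr19:5476020-5476065 that Efemp2-204 lacks are included. As 46 leaves a remainder of 1 after division by 3, the frame changes, and a TGA follows at chr19:5476106-5476108 after 246 coding bases, with 3 exons after it, against 1329 coding bases in Efemp2-204. Capitals mark the added bases and the stop codon.
Efemp2-204: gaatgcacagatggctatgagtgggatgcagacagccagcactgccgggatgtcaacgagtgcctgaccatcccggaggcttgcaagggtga
Efemp2-214: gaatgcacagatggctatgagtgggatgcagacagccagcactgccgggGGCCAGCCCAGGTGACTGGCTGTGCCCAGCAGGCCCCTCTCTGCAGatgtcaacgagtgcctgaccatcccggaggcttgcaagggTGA

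The 10 genes were a visible part of translation in MEFs and a small part elsewhere. Together they took 0.818 to 0.899% of all footprints in MEF controls, 0.0448 to 0.0700% in wild-type embryos and 0.0233 to 0.0345% in control cerebella. Per kilobase of coding sequence, *Lox* led in MEF controls of the *Hbs1l* pool with 2714 ± 90.9 CPM per kilobase (SD, n = 3), followed by *Fbln5* with 1041 ± 76.1. *Efemp2* (233 ± 11.6), *Efemp1* (232 ± 18.7) and *Fbn1* (227 ± 15.7) came next and overlapped between libraries. *Loxl1* (185 ± 12.3) and *Mfap4* (110 ± 13.7) followed, *Eln* (60.7 ± 6.12) and *Fbn2* (60.4 ± 2.40) overlapped, and *Mfap5* was lowest with 35.9 ± 3.61. These are levels on a per-length scale, and elastin itself was thus among the least translated of its own fibre's genes in control MEFs.

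In wild-type embryos the order was a different one. *Fbn2*, the fibrillin most used before birth, was highest with 45.6 ± 11.6 CPM per kilobase (SD, n = 3), then *Efemp2* with 23.7 ± 3.21 and *Mfap4* with 17.9 ± 5.24, whose libraries overlapped with those of *Efemp2*. *Eln* had the lowest mean with 0.625 ± 0.121, which rests on 4 to 8 footprints per library, and its libraries overlapped with those of *Mfap5* and *Lox*. In control cerebella, *Mfap4* (44.3 ± 8.80) and *Eln* (34.9 ± 14.7) had the highest means and overlapped, *Eln* libraries also overlapped with those of *Fbln5* (22.6 ± 5.11) and *Lox* (15.1 ± 4.26), and *Fbn2* was lowest with 0.709 ± 0.377. Cerebella also held markers of meninges, whose 6 genes summed to 1285 to 1879 CPM there (mainly *Ptgds*), and 8 fibroblast markers at 1787 to 4886 CPM, against 1367 to 1429 in wild-type embryos and 27520 to 28200 in MEF controls. The part of these cells in the tissue levels was not tested, and in bulk samples fewer cells of a type and less RNA per cell cannot be told apart.

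**Figure D1:**
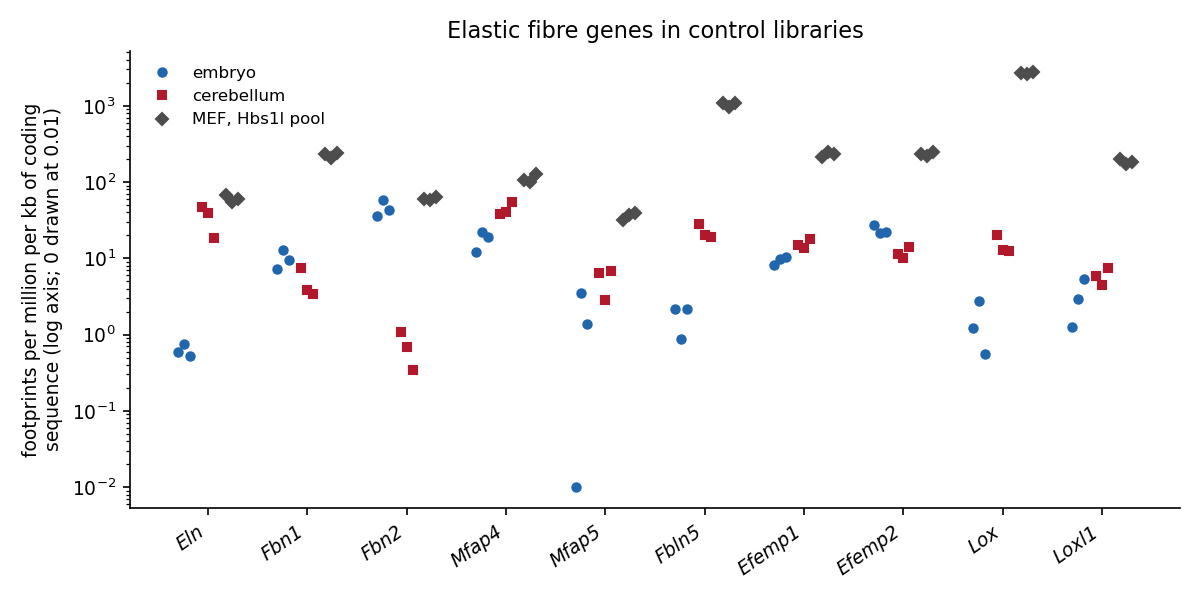
Footprints in CPM per kilobase of coding sequence (log axis) for the 10 genes in the 3 control libraries each of embryos, cerebella and MEFs (*Hbs1l* pool), 1 point per library; a value of 0 is drawn at the foot of the axis. *Lox* and *Fbln5* lead in MEFs and *Fbn2* in embryos, and *Mfap4* and *Eln* have the highest means in cerebella.

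*Eln* (ENSMUSG00000029675.12, chr5:134702593-134747323, minus strand) encodes tropoelastin, the soluble precursor of the elastic core. Its footprints in libraries labelled *Upf2*-/- were 1616, 1267 and 1275 CPM, and those in the controls of the same pool were 167.9, 141.5 and 163.1 CPM. The lowest *Upf2*-labelled library lay far above the highest control, and the log2 fold change was 3.09 (standard error, SE, 0.10), the value on which the genes were chosen. Among all 22438 genes ranked by CPM, which is not scaled for length, *Eln* moved from ranks 1030 to 1254 in the controls to ranks 60 to 79. It was thus among the genes with the most footprints in those cells. Leaving out each library in turn gave 2.98 to 3.15.

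*Eln* RNA did not follow. It was at 14.19, 25.53 and 16.68 TPM in libraries labelled *Upf2*-/- and at 14.43, 32.29 and 36.79 TPM in controls, and the groups overlapped. The RNA difference was -0.51 (SE 0.26) and did not pass the test (adjusted p = 0.191, the quasi-likelihood test of edgeR with p adjusted after Benjamini and Hochberg, as for all adjusted p values here). It was -0.79 and called without control 1 (adjusted p = 0.0179), -0.28 without control 3 and called when every gene with at least 1 count was kept (adjusted p = 0.00422), and adjusted p ran from 0.00422 to 0.516 over its 13 alternatives. The change in translation efficiency (TE), that is in footprints relative to RNA, was 3.58 (SE 0.32), a description since it holds the same footprints. Footprint and RNA libraries were treated as separate samples, and the labels do not say whether same-numbered ones came from the same embryo.

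In *Hbs1l*-/- MEFs, *Eln* footprints and RNA were both higher. Footprints were 450.4, 479.3 and 225.6 CPM against 174.0, 142.8 and 154.1 in the controls, with no overlap, a rise of 1.27 on the log2 scale (SE 0.20, adjusted p = 0.000249). As the controls are taken as the samples of the *Upf2* pool, this p is not independent of the choice of *Eln*. RNA was 125.5, 75.84 and 36.48 TPM against 14.43, 32.29 and 36.79. Here 1 mutant library lay inside the control range, and the rise of 1.47 (SE 0.40, adjusted p = 0.0291) no longer passed when either of the other mutant libraries or control 1 or 2 was left out. TE differed by -0.19 (SE 0.49, adjusted p = 0.877).

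In *Pelo*-/- MEFs the 3 libraries disagreed about *Eln*. Footprints were 212.8, 100.2 and 492.3 CPM against 172.9, 142.3 and 164.7, so that 1 library lay below all controls and the other two above them. The difference of 0.72 (SE 0.41) did not pass (adjusted p = 0.183), became -0.03 without library 3 and was 1.11 and called without library 2 (adjusted p = 0.00581). RNA was at 27.48 and 25.09 TPM, inside the control range. It differed by -0.16 (adjusted p = 0.715) but was called lower without control 1 (adjusted p = 0.00953). TE differed by 0.90 (SE 0.61, adjusted p = 0.248) and was called without *Pelo*-/- footprint library 2 (adjusted p = 0.0338). *Eln* RNA thus differed between mutants: it was lower in libraries labelled *Upf2*-/- than in *Hbs1l*-/- MEFs by 1.98 on the log2 scale (log2 difference -1.98, SE 0.39, adjusted p = 0.00334), and the difference from *Pelo*-/- MEFs was -0.39 (adjusted p = 0.325).

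**Figure D2:**
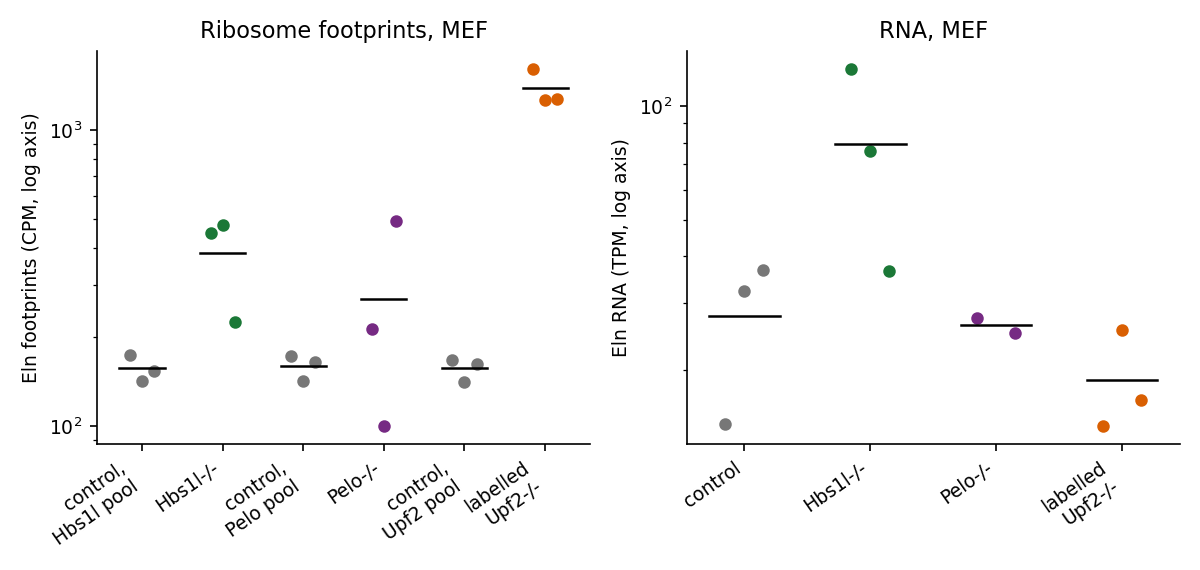
*Eln* footprints (CPM, log axis, left) and RNA (TPM, log axis, right) in each MEF library; points are libraries and lines are means, with the controls of each footprint pool shown apart. Footprints of the libraries labelled *Upf2*-/- sit between 1267 and 1616 CPM while their RNA overlaps the controls, and the *Pelo*-/- footprints lie on both sides of their controls.

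Outside MEFs, no difference in *Eln* footprints was called. In cerebella they were 95.44, 104.0 and 65.95 CPM in mutants and 121.3, 101.6 and 47.96 in controls, a difference of -0.13 (SE 0.33, adjusted p = 0.893) whose sign turned when control 1 or mutant 3 was left out. In embryos they were 0.822, 0.460 and 0 CPM in mutants and 1.52, 1.97 and 1.36 in controls, so that the groups did not overlap, but these values rest on 0 to 6 and 4 to 8 footprints per library, below the count filter. With every gene of at least 1 count kept, *Eln* differed by -1.63 (SE 1.03, adjusted p = 0.460).

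Of the 4 microfibril genes, footprints of 3 rose in *Hbs1l*-/- and of 3 in *Pelo*-/- MEFs, and all 4 were above 0 with the *Upf2* label. Of all genes, 17.4% rose and 34.1% were called in *Hbs1l*-/- and 22.9% rose and 44.1% were called in *Pelo*-/- MEFs. *Fbn1* (ENSMUSG00000027204.13, chr2:125300594-125507993) encodes the main fibrillin of adult microfibrils. Its footprints were 2852, 2817 and 2507 CPM in *Hbs1l*-/- MEFs against 1992, 1802 and 2064, a rise of 0.46 (SE 0.07, adjusted p = 0.000170). In *Pelo*-/- MEFs they were 2694, 2301 and 3005 CPM against 2001, 1836 and 2100, a rise of 0.41 (SE 0.09, adjusted p = 0.00455). In libraries labelled *Upf2*-/- they were 4146, 3389 and 3251 CPM against 1988, 1827 and 2096, a difference of 0.82 (SE 0.08). No mutant library overlapped its controls in any of the 3 comparisons. *Fbn1* RNA in these mutants differed from controls by 0.30, 0.79 and -0.41 and passed in none of them (adjusted p = 0.426, 0.0540 and 0.222), and it was lower in libraries labelled *Upf2*-/- than in *Pelo*-/- MEFs (log2 difference -1.23, SE 0.24, adjusted p = 0.00322).

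*Fbn2* (ENSMUSG00000024598.9, chr18:58008623-58210487) encodes the fibrillin of developing tissues, and its direction differed between embryos and MEFs. In *Hbs1l*-/- MEFs its footprints were 858.7, 794.6 and 662.7 CPM against 515.7, 513.0 and 550.5, a rise of 0.53 (SE 0.08, adjusted p = 0.000287). In *Hbs1l*-/- embryos they were 254.4, 221.2 and 169.7 CPM against 311.6, 508.7 and 372.9, a fall with a log2 fold change of -0.86 (SE 0.19, adjusted p = 0.0400). Neither pair of groups overlapped, and the difference between both effects was -1.38 (SE 0.23, adjusted p = 0.00267). The embryo fall no longer passed without any 1 of 5 of the 6 embryo libraries (-1.0 to -0.65), all except *Hbs1l*-/- library 1, while the difference between tissues did in all 12 such fits. In *Pelo*-/- MEFs the difference was 0.15 (adjusted p = 0.529), with 1 library of 407.8 CPM below and 2 above the controls. It was 0.72 in libraries labelled *Upf2*-/-, at 787.1 to 1041 CPM against 508.8 to 539.5.

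*Mfap4* (ENSMUSG00000042436.12, chr11:61485431-61488900) encodes a microfibril protein that binds elastin and fibrillin. Its footprints rose by 0.38 in *Hbs1l*-/- MEFs (116.7 to 130.5 against 84.40 to 106.3 CPM, SE 0.08, adjusted p = 0.00322). In *Pelo*-/- MEFs they rose by 0.60 (SE 0.18, adjusted p = 0.0193), where a library of 108.2 CPM lay below the highest control of 109.6 and the call was lost with DESeq2 and without Pelo-pool control 1 or 2. In libraries labelled *Upf2*-/- they were higher by 0.63, at 147.9 to 159.6 against 85.82 to 111.2 CPM. *Mfap4* RNA rose in *Hbs1l*-/- MEFs (0.62, SE 0.19, adjusted p = 0.0459), a call lost with a minimum mean of 5 CPM and without control 1 or 2 or mutant 1 or 2, and was lower in libraries labelled *Upf2*-/- than in those (log2 difference -1.05, SE 0.20, adjusted p = 0.00242).

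*Mfap5* (ENSMUSG00000030116.14, chr6:122505845-122529290) encodes a small microfibril glycoprotein and was the microfibril gene that separated *Pelo*-/- from *Hbs1l*-/- MEFs. Its footprints in *Pelo*-/- MEFs were 34.38, 29.09 and 33.86 CPM against 17.56, 17.68 and 19.46, a rise of 0.81 (SE 0.10, adjusted p = 0.000106). In *Hbs1l*-/- MEFs they were 18.68, 19.59 and 14.93 CPM against 15.66, 18.29 and 19.05, a difference of -0.03 (adjusted p = 0.879). The *Pelo* effect exceeded the *Hbs1l* effect by 0.85 (SE 0.16, adjusted p = 0.00666). *Mfap5* TE rose in *Pelo*-/- MEFs by 1.12 (SE 0.15, adjusted p = 9.17e-05). In libraries labelled *Upf2*-/- the footprints were higher by 0.44 (19.07 to 28.19 against 16.78 to 18.46 CPM), while RNA was 8.333, 8.968 and 6.755 TPM against 14.41, 12.49 and 15.02, a fall with a log2 fold change of -0.70 (SE 0.14, adjusted p = 0.00583).

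Of the fibulins, footprints of *Fbln5* and *Efemp1* fell in *Hbs1l*-/- and *Pelo*-/- MEFs. *Efemp1* (ENSMUSG00000020467.15, chr11:28853204-28926743) had 173.2, 169.0 and 175.9 CPM in *Hbs1l*-/- MEFs against 312.9, 367.5 and 348.1, a fall with a log2 fold change of -1.02 (SE 0.07, adjusted p = 1.15e-06). In *Pelo*-/- MEFs it had 101.1, 91.65 and 107.0 CPM against 322.6, 362.2 and 333.6, a log2 fold change of -1.78 (SE 0.08, adjusted p = 1.91e-07). In libraries labelled *Upf2*-/- it had 126.2, 117.7 and 108.2 CPM against 314.2, 362.3 and 334.9, a difference of -1.57 (SE 0.08). Every mutant library was below every control, and the *Pelo* effect was stronger than the *Hbs1l* effect (log2 difference -0.76, SE 0.11, adjusted p = 0.000964).

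*Efemp1* RNA passed the test against controls in *Hbs1l*-/- MEFs and with the *Upf2* label. It was 21.33, 20.41 and 18.50 TPM in *Hbs1l*-/- MEFs against 35.61, 39.15 and 37.20 in controls, a log2 fold change of -1.03 (SE 0.10, adjusted p = 0.000761) that was close to that of the footprints, with a TE difference of 0.03 (adjusted p = 0.946). For *Pelo*-/- MEFs it was 37.69 and 34.53 TPM, within or just under the controls, a difference of -0.20 (adjusted p = 0.159), and TE fell (log2 fold change -1.56, SE 0.13, adjusted p = 2.35e-06). In libraries labelled *Upf2*-/- RNA fell by 0.69 on the log2 scale (SE 0.16, adjusted p = 0.0118), a call lost without *Upf2*-labelled RNA library 2. The TE difference there was -0.90 (SE 0.19). The transcript Efemp1-201 carried the RNA fall in *Hbs1l*-/- MEFs, at 12.87 to 15.19 TPM against 28.79 to 30.14 (log2 fold change -1.10, adjusted p = 0.0380), a call lost in each of the 6 fits without 1 library.

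*Fbln5* (ENSMUSG00000021186.9, chr12:101746565-101819055) encodes a fibulin that binds tropoelastin and integrins. Its footprints were 1144, 1161 and 1155 CPM in *Hbs1l*-/- MEFs against 1530, 1335 and 1507 (log2 fold change -0.36, SE 0.06, adjusted p = 0.000452). They were 696.7, 710.5 and 689.6 CPM in *Pelo*-/- MEFs against 1517, 1342 and 1490 (log2 fold change -1.07, SE 0.07, adjusted p = 1.90e-06). Neither mutant overlapped its controls, and the *Pelo* effect was the stronger (log2 difference -0.70, SE 0.08, adjusted p = 0.000224). Under the *Upf2* label they were 902.6, 894.3 and 955.3 CPM against 1552, 1349 and 1522, a difference of -0.73 (SE 0.07). *Fbln5* RNA fell in libraries labelled *Upf2*-/- (95.90, 132.6 and 99.03 against 151.4, 232.6 and 200.4 TPM, log2 fold change -0.82, adjusted p = 0.00213), and there its TE difference was 0.07. For *Pelo*-/- MEFs the RNA difference was -0.25 (adjusted p = 0.188) and TE fell (log2 fold change -0.80, SE 0.15, adjusted p = 0.000818).

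*Efemp2*, whose fibulin couples LOX to tropoelastin, changed little at the level of the gene. Its footprints rose in *Pelo*-/- MEFs (451.5 to 489.5 against 335.4 to 373.6 CPM, log2 fold change 0.38, SE 0.06, adjusted p = 0.000757), and that effect exceeded the one of *Hbs1l* by 0.32 (SE 0.08, adjusted p = 0.0278), a call lost in 7 of 12 fits that left out 1 library. *Efemp2* TE in *Pelo*-/- MEFs rose by 0.35 (SE 0.12, adjusted p = 0.0333), a call lost in 7 of 11 such fits. In MEFs labelled *Upf2*-/- footprints were at 331.7 to 357.8 against 341.0 to 380.5 CPM and RNA at 153.7 to 167.7 against 146.6 to 205.7 TPM, overlapping in both.

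The NMD-type transcript Efemp2-214, shown above, did rise in the libraries labelled *Upf2*-/-. It was estimated at 3.399, 4.596 and 3.976 TPM there and at 1.395, 1.320 and 1.103 in controls, with no overlap and a log2 fold change of 1.60 (SE 0.28, adjusted p = 0.0308). *Hbs1l*-/- MEFs had 1.394 to 1.878 TPM and *Pelo*-/- MEFs 0.8439 and 1.193. The protein-coding Efemp2-204 had 126.0, 136.4 and 124.7 TPM in libraries labelled *Upf2*-/- and 119.3, 149.6 and 176.1 in controls, so that Efemp2-214 stayed a small part of the RNA of the gene. Other minor transcripts of *Efemp2* also lay above their controls there: the protein-coding Efemp2-210 at 2.56 to 2.98 against 0 to 0.700 TPM (log2 fold change 2.87, SE 0.86, adjusted p = 0.118) and the retained-intron Efemp2-212 at 0.905 to 1.05 against 0 to 0.849 (1.63, SE 1.07, adjusted p = 0.437), neither of them called. The call for Efemp2-214 was lost in each of the 6 fits without 1 library, and the log2 fold change was 1.49 to 1.76 in them. Such estimates also carry error of assigning reads to transcripts that share most of their sequence.

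**Figure D3:**
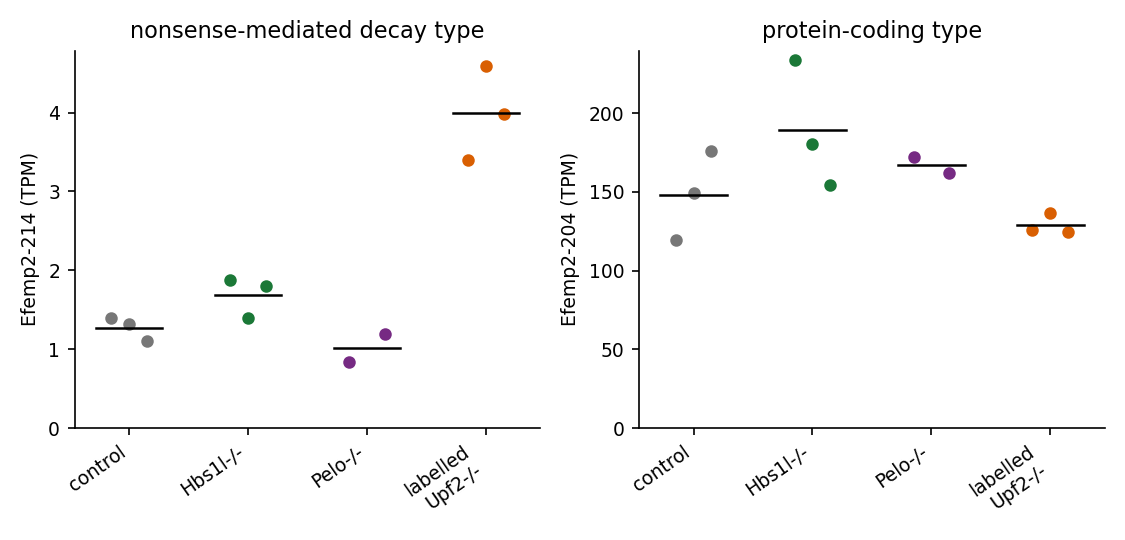
RNA of Efemp2-214, annotated as a target of nonsense-mediated decay (left), and of the protein-coding Efemp2-204 (right), in TPM on axes from 0; points are MEF libraries and lines are means. Efemp2-214 lies at 3.399 to 4.596 TPM in the libraries labelled *Upf2*-/-, above all others, while Efemp2-204 overlaps between those libraries and controls.

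Over the 10 genes, 32 transcripts were tested in *Hbs1l*-/-, 31 in *Pelo*-/- and 34 in MEFs labelled *Upf2*-/-. Efemp1-201 was the 1 transcript called in *Hbs1l*-/- MEFs (1.31% of all transcripts tested were called), and 3 were called with the *Upf2* label (5.35%), which besides Efemp2-214 were Mfap5-207 (log2 fold change -0.77, adjusted p = 0.0452) and Fbln5-203 (-0.90, adjusted p = 0.0295), calls lost in 6 and 5 of the 6 fits without 1 library. For *Pelo*-/- MEFs edgeR called 0 (2.37% of all transcripts tested were called), with 2 at an unadjusted p under 0.05, and DESeq2 called 3 (13.1% of all). Eln-203, the NMD-type transcript of *Eln*, was at 2.925e-05 to 0.165 TPM in libraries labelled *Upf2*-/- and at 0.00167 to 1.29 in controls. It was at 2.41 to 5.63 in *Hbs1l*-/- MEFs, where its adjusted p was 0.339.

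The cross-linking enzymes moved apart from each other. *Lox* (ENSMUSG00000024529.14, chr18:52516067-52529867) encodes the main lysyl oxidase. Its footprints were 2835, 2966 and 2609 CPM in *Hbs1l*-/- MEFs against 3317, 3252 and 3470, a log2 fold change of -0.28 (SE 0.06, adjusted p = 0.00300). For *Pelo*-/- MEFs they were 2591, 2697 and 3029 CPM against 3348, 3257 and 3469, a log2 fold change of -0.30 (SE 0.07, adjusted p = 0.00730). Both falls were small, without overlap of libraries. Under the *Upf2* label the footprints were 3004 to 3274 CPM against 3244 to 3483, while RNA fell (155.8, 178.6 and 110.1 against 183.7, 316.0 and 243.0 TPM, log2 fold change -0.72, SE 0.16, adjusted p = 0.0122).

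*Loxl1* (ENSMUSG00000032334.10, chr9:58287738-58313186) encodes a lysyl oxidase needed to maintain elastic fibres, and it rose where *Lox* fell. Its footprints were 437.5, 480.3 and 428.2 CPM in *Hbs1l*-/- MEFs against 361.4, 317.3 and 333.0 (log2 fold change 0.39, SE 0.07, adjusted p = 0.000619). They were 517.7, 487.6 and 573.3 CPM in *Pelo*-/- MEFs against 350.8, 332.9 and 328.9 (log2 fold change 0.62, SE 0.07, adjusted p = 7.29e-05). In MEFs labelled *Upf2*-/- they were 457.8 to 531.9 against 337.3 to 370.1 CPM, a difference of 0.42. *Loxl1* was the 1 gene of the 10 whose RNA also rose in both *Hbs1l*-/- (0.62, adjusted p = 0.00730) and *Pelo*-/- MEFs (0.48, SE 0.11, adjusted p = 0.0178). The latter call was lost without control 3 or either *Pelo*-/- RNA library.

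**Figure D4:**
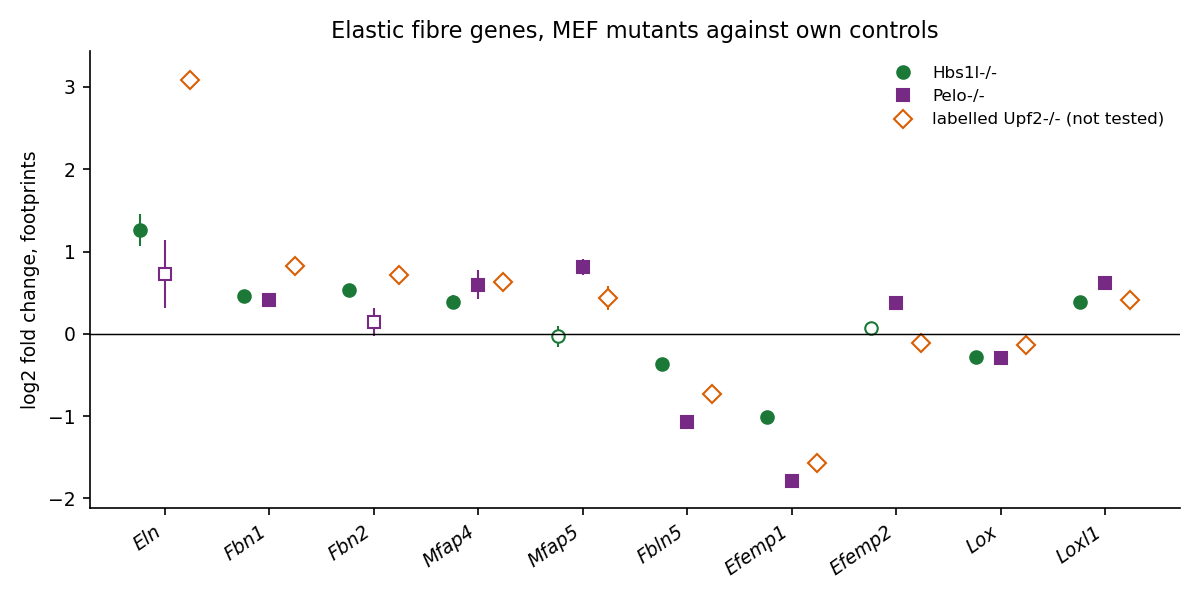
Log2 fold change of footprints, with standard error, for each gene in *Hbs1l*-/- (circles), *Pelo*-/- (squares) and *Upf2*-labelled MEFs (diamonds) against the controls of the same pool, 3 libraries a group; filled symbols passed an adjusted p of 0.05, and *Upf2*-labelled values were not tested. *Eln* reaches 3.09 in *Upf2*-labelled MEFs, and *Fbln5* and *Efemp1* are below 0 in all 3 mutants.

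Counted over the 10 genes, 5 rose and 3 fell in *Hbs1l*-/- MEFs, where 34.1% of all genes tested were called, and 5 rose and 3 fell in *Pelo*-/- MEFs, where 44.1% were called. Their median log2 fold changes were 0.23 and 0.40, against -0.01 and 0.00 over all genes tested. With the *Upf2* label and after TMM scaling, libraries of 5 genes lay wholly above and those of 4 wholly below their controls, a separation that 54.1% of all genes showed, and nothing is read from it because these footprints chose the genes. On the library totals printed above, *Mfap5* lay wholly above its controls too, and *Efemp2* and *Lox* overlapped theirs. The *Pelo* and *Hbs1l* effects differed for 4 genes, 2 in each direction (5.55% of all genes). With the controls counted once, an alternative added after the data had been seen, the mutants differed directly in 5 genes, which were these 4 and *Loxl1*, and 18.1% of all genes were called in that fit. Footprints of cell type markers also changed in the same MEFs. Of 6 macrophage markers all 6 rose in *Pelo*-/- MEFs, to sums of 372.1 to 544.7 CPM from 101.2 to 142.7, and 5 rose in *Hbs1l*-/- MEFs (183.7 to 244.5 from 102.4 to 139.8). With the *Upf2* label their sum was 135.7 to 173.3 against 98.06 to 136.3 CPM. Of 8 fibroblast markers 7 rose in each of *Hbs1l*-/- and *Pelo*-/- MEFs, and of 7 smooth muscle markers 6 and 5 fell, to sums of 12390 to 13900 and 11120 to 15400 CPM from 20250 to 22460 and 20220 to 22450. With the *Upf2* label, sums were 33580 to 36210 against 27720 to 28200 CPM for fibroblast and 11890 to 15450 against 20370 to 22580 CPM for smooth muscle markers. Under that label 6 of the fibroblast markers lay above 0 and 2 below, and 3 of the smooth muscle markers above and 4 below. *Acta2* was the most abundant smooth muscle marker. These 3 lists had every marker detected in each of the groups. Sums of 7 endothelial markers were 39.0 to 43.7 against 69.7 to 82.9 CPM in *Hbs1l*-/-, 25.7 to 33.2 against 74.0 to 81.9 in *Pelo*-/- and 55.0 to 61.7 against at least 69.6 in *Upf2*-labelled MEFs. Those of 5 chondrocyte markers were 285.6 to 446.1 against 528.5 to 675.2, 128.6 to 196.1 against 528.5 to 660.1 and 306.8 to 494.0 against 524.5 to 670.9 CPM. *Kdr* and *Col2a1* held most of these sums in controls, and with *Pelo* loss *Kdr* (-1.46), *Emcn* (-4.49) and *Col2a1* (-3.38) fell while *Cdh5* (2.69), *Comp* (2.37) and *Sox9* (0.35) rose. With *Hbs1l* loss *Col2a1* (-1.08) fell and *Comp* and *Acan* rose, and under the *Upf2* label *Col2a1* (-1.01) was the 1 of 4 chondrocyte markers below 0. In RNA of *Hbs1l*-/- MEFs, 6 fibroblast and 4 macrophage markers rose and 6 smooth muscle markers fell (23.1% of all genes called). In *Pelo*-/- RNA, 1 fibroblast, 1 macrophage and 1 smooth muscle marker rose and 0 fell (32.1%). With the *Upf2* label, RNA of 1 fibroblast, 0 macrophage and 2 smooth muscle markers fell and 0 rose (20.1%). The part of these lists in the changes of the 10 genes was not tested.

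RNA and TE were set beside the footprints of the MEF mutants. In *Hbs1l*-/- MEFs, RNA of 3 genes rose (*Eln*, *Mfap4* and *Loxl1*) and that of *Efemp1* fell, with 23.1% of all genes called, and TE was called for 0 of the 10 by edgeR (0.0336% of all genes), with 0 at an unadjusted p under 0.05, and for 0 by DESeq2 (2.81% of all genes). Footprints of *Fbn1*, *Fbn2*, *Fbln5* and *Lox* were called there while neither their RNA nor their TE was. For *Pelo*-/- MEFs, RNA of *Loxl1* alone passed (32.1% of all genes), while TE was called for 4 genes, up for *Mfap5* and *Efemp2* and down for *Fbln5* and *Efemp1* (44.6% of all genes). With the *Upf2* label, RNA of 4 genes fell (*Mfap5*, *Fbln5*, *Efemp1* and *Lox*) and that of none passed upward, where 20.1% of all genes were called and 6.84% were called down. TE in those cells was above 0 for 9 genes and below 0 for *Efemp1*. The median over the 10 was 0.81, against -0.03 over all genes, again as a description.

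**Figure D5:**
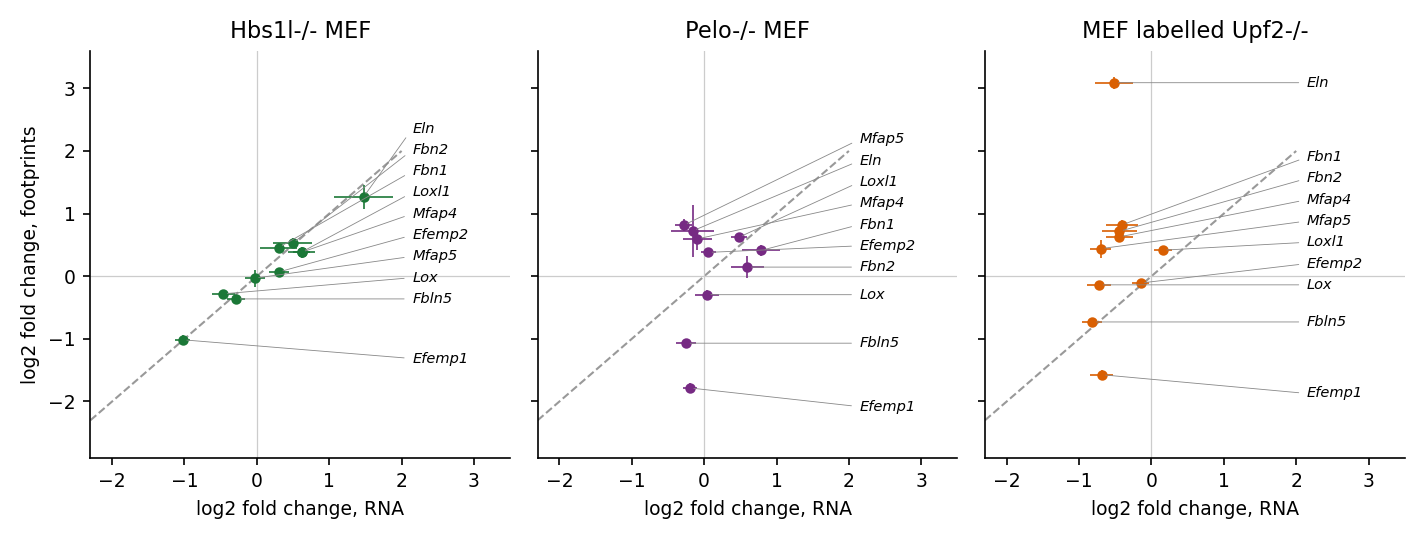
Log2 fold change of footprints (vertical) against that of RNA (horizontal) for the 10 genes in each MEF mutant, with standard errors; the dashed line marks equal change. In *Hbs1l*-/- MEFs the genes lie near the line, in *Pelo*-/- MEFs RNA changes run from -0.29 to 0.79 and footprint changes from -1.78 to 0.81, and *Eln* stands at 3.09 in footprints and -0.51 in RNA with the *Upf2* label.

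RNA of most of the 10 genes was lower with the *Upf2* label than in the other MEF mutants. Against *Hbs1l*-/- MEFs 7 genes were lower and 0 higher (29.6% of all genes were called and 12.6% were called down), and against *Pelo*-/- MEFs 7 were lower and 0 higher (31.9% were called and 14.9% were called down). *Fbn2*, *Mfap5*, *Fbln5* and *Loxl1* were lower in both comparisons, but against *Pelo*-/- MEFs the call for *Loxl1* held under 3 of 15 alternatives and that for *Mfap5* under 6 of 15. Both were lost with protein-coding transcripts alone, with all 11 RNA libraries in 1 fit and without either *Pelo*-/- library. There *Fbn2* and *Fbln5* lost theirs without *Pelo*-/- library 2. Against *Hbs1l*-/- MEFs, *Fbn2* lost its call without *Hbs1l*-/- library 1 or 2 or *Upf2*-labelled library 1 or 3. *Loxl1* and *Efemp2* lost theirs without library 1 of either group. These were direct contrasts of the mutants, in fits that held the controls for the spread. Of 8 fibroblast markers, RNA of all 8 was lower with the *Upf2* label than in *Hbs1l*-/- MEFs (sums of 3681 to 4440 against 5607 to 6769 TPM) and that of 4 was lower than in *Pelo*-/- MEFs. Of 6 macrophage markers, 5 and 1 were lower in these comparisons (sums of 54.94 to 117.8 with the *Upf2* label against 121.4 to 162.7 and 96.43 to 149.5 TPM). Of 7 smooth muscle markers 3 were higher and 1 lower than in *Hbs1l*-/-, and 2 lower than in *Pelo*-/- MEFs. Of 4 tested chondrocyte markers 1 and 3 were lower, and of 5 tested endothelial markers 2 were higher and 1 lower than in *Hbs1l*-/- and 1 lower than in *Pelo*-/- MEFs. The part of these lists in the result was not tested.

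*Hbs1l* loss in embryos and cerebella gave few calls, among the 10 genes as among all genes. In embryos 7 could be tested and *Fbn2* alone was called (1.87% of all genes), with a median of -0.36 against 0.01 over all genes. *Eln*, *Mfap5* and *Lox* had 0 to 27 footprints per library and fell below the count filter within embryos, and without that filter edgeR called 0 of these 3 (4.31% of all genes), with 0 at an unadjusted p under 0.05. Sums of several marker lists lay apart between the same embryos: 83.81 to 147.4 against 219.9 to 296 CPM for 5 chondrocyte, 540.8 to 682 against 804.5 to 853.6 for 7 smooth muscle, 516.2 to 722.1 against 480.3 to 507.5 for 7 endothelial and 128.4 to 196.1 against 196.7 to 213.2 for 6 markers of E8 embryos. Of their members, *Col2a1* (-1.58) and *Des* (-1.06) fell and *Pecam1* (1.27) rose. Of 7 endothelial markers 4 lay above 0 and 3 below, and of 6 E8 markers 1 above and 5 below. All 6 smooth muscle and 2 chondrocyte markers tested lay below 0. Sums of 6 decidua and trophoblast markers overlapped (100.4 to 1043 against 46.31 to 121.9 CPM), and 3 of the 4 tested rose. All 6 had a mean of at least 1 CPM in mutants but only 2 did in controls. Some of those tested thus met the count filter through the mutants, where they are high, and nothing is read from their rise. Those of 8 fibroblast markers overlapped too (1002 to 1370 against 1367 to 1429 CPM). Of these 8, 2 fell and 0 rose, with 3 above and 5 below 0. The part of these lists was not tested. Compared with the effect in MEFs, that in embryos was lower for *Fbn2*, *Fbn1* (log2 difference -0.79, SE 0.22, adjusted p = 0.0369) and *Mfap4* (-0.88, SE 0.25, adjusted p = 0.0423), where 7.46% of all genes were called and 3.26% were called down. *Eln*, below the count filter within embryos, met the filter of this fit through its MEF libraries. Its embryo libraries held 0 to 8 footprints, so the fit cannot decide whether its effect differs. Its difference of -2.80 (SE 0.92) did not pass (adjusted p = 0.0717). It was called by DESeq2 (adjusted p = 0.00214), with every gene of at least 1 count kept (adjusted p = 0.0241) and without *Hbs1l*-/- MEF library 3. Adjusted p reached 0.224 over its alternatives, and nothing is read from these calls. The calls for *Fbn1* and *Mfap4* were lost without any 1 of 8 and of 9 of the 12 libraries. Tissue, strain, *Hbs1l* alleles, CAG-Cre ER with Tamoxifen, cell culture and sequencing pool differ together in that comparison and cannot be told apart.

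In cerebella edgeR called 0 of the 10 genes (0.0624% of all genes), with 2 at an unadjusted p under 0.05, and DESeq2 called 2 (3.35% of all genes), *Mfap4* and *Loxl1*. Without control 3, edgeR called these 2 as well (560 of all 14597 genes tested in that fit). *Mfap4* was at 69.78, 60.08 and 70.60 CPM in mutants against 32.42, 33.73 and 45.87 (log2 fold change 0.74, SE 0.14, adjusted p = 0.105), and *Loxl1* at 19.19, 18.04 and 22.13 against 10.65, 8.138 and 13.65 (log2 fold change 0.78, SE 0.20, adjusted p = 0.152). Both sets of libraries were apart, as were those of 18.3% of all genes. Sums of 6 macrophage markers were higher in every mutant library (165.8 to 188.2 against 127.3 to 155.4 CPM), as were those of 6 markers of E8 embryos, mainly *Sox2* (58.98 to 79.32 against 45.49 to 58.01), though no tested member passed by edgeR (lowest unadjusted p = 0.0131). Meningeal markers overlapped at 1081 to 1371 CPM in the mutants and 1285 to 1879 in controls. The part of these lists was not tested.

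Of 22 tested genes for further proteins of elastic fibre assembly, 8 rose and 4 fell in *Hbs1l*-/- footprints, where 34.1% of all genes were called, and 10 rose and 4 fell in *Pelo*-/- footprints, where 44.1% were called. *Emilin2*, an elastin-associated glycoprotein, went from 7.47 to 11.9 CPM in controls to 30.3 to 49.6 in *Hbs1l*-/- MEFs (log2 fold change 2.14, SE 0.19, adjusted p = 3.63e-06) and rose by 2.62 in *Pelo*-/- MEFs. *Loxl2*, a lysyl oxidase that also acts on collagen IV, fell by 0.94 and 1.46, and *Loxl3* rose by 0.58 and 1.03. *Adamts10*, a metalloprotease of microfibrils, fell by 1.08 and 1.24. Under the *Upf2* label the footprint differences were 1.69 for *Emilin2* and -1.13 for *Loxl2*, while RNA of 4 assembly genes rose, with *Adamtsl5* highest (log2 fold change 1.2, SE 0.15, adjusted p = 0.000324), and that of 2 fell, *Fbln7* (-1.32) and *Thsd4* (-0.78), both under 5 CPM and named after their values were seen. Of all genes, 13.3% were called up there and 6.84% down, and the median of the list was -0.05.

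Of all genes tested, 17.4% rose and 16.7% fell in *Hbs1l*-/- and 22.9% rose and 21.2% fell in *Pelo*-/- footprints, the background for each of the following counts. Of 4 genes that process propeptides or supply copper, 3 fell in each of *Hbs1l*-/- and *Pelo*-/- MEFs, among them *Bmp1*, which cleaves the LOX propeptide (-0.58 and -0.55), and *Atp7a*, the copper pump (-0.27 and -0.36). Of 10 tested elastases and inhibitors, 4 rose and 4 fell in *Hbs1l*-/- and 6 rose and 3 fell in *Pelo*-/- MEFs. *Mmp12*, the macrophage elastase, went from 1.22 to 2.29 CPM in controls to 19.1 to 35.9 in *Pelo*-/- MEFs (log2 fold change 4.03), where macrophage markers were higher too, and *Ctsk* and *Ctss*, cathepsins that degrade elastin, rose in both mutants by 0.84 and 0.81 with *Hbs1l* and 1.32 and 1.39 with *Pelo*. Of 11 genes of the TGF-beta axis, which microfibrils hold latent, 1 rose and 4 fell in *Hbs1l*-/- and 2 rose and 6 fell in *Pelo*-/- MEFs, with *Tgfb2* lowest (-0.87 and -1.54). In embryos 1 of 7 tested elastases and inhibitors rose, *Mmp9* (log2 fold change 1.38, adjusted p = 0.0331), where 1.87% of all genes were called.

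Genes with a footprint pattern most like that of *Eln* were sought over 12 MEF profiles, which were the 3 controls averaged over pools and the 9 mutant libraries. Among 8408 genes with a mean of at least 10 CPM, Pearson's r on the log2 scale was highest for *Ubn1* and *Lamc1* (0.97 each), *Lamb2* (0.97), *Pdia6* (0.96) and *Hspa5* (0.96). *Lamc1* and *Lamb2* encode laminin chains of basement membranes, and *Pdia6* and *Hspa5* encode folding factors of the endoplasmic reticulum. *Hspa5*, for example, lay at 2168 to 2401 CPM in controls, 2421 to 2623 in *Hbs1l*-/-, 2251 to 2796 in *Pelo*-/- and 3213 to 3444 in *Upf2*-labelled libraries, a far smaller span than that of *Eln*. Of the other elastic fibre genes, *Fbn2* (0.91) and *Fbn1* (0.91) were nearest, *Mfap4* (0.76) and *Loxl1* (0.50) followed, and *Mfap5* (0.21), *Lox* (0.19), *Fbln5* (-0.25), *Efemp2* (-0.34) and *Efemp1* (-0.45) were less like it. The profiles share controls, libraries and depth, *Upf2*-labelled libraries chose the genes, and r is a description.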

How the data were processed

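Ribosome footprints (30 libraries) and RNA (11 libraries) were used as the authors deposited them. Footprint files hold raw counts, which per the study's methods are reads on coding sequences, mapped with HISAT2 2.1.0 to mm10 with a Gencode annotation after removal of non-coding RNA with Bowtie2 2.2.3 and counted with featureCounts. RNA files hold, as deposited by the authors, estimated counts and TPM values per transcript from kallisto 0.42.4. Submitters' processing notes name the same tools. A gene's TPM is the sum over its transcripts.

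Each mutant was compared with the controls of its own tissue or pool. Histone genes, by symbol, entered no gene-level test. edgeR 4.0.16 in R 4.3.3 was run with its default filter on low counts, TMM factors and the quasi-likelihood test over all genes or transcripts, after estimated counts were rounded, with a Benjamini-Hochberg adjusted p of at most 0.05 as threshold. TE was the interaction of assay and genotype, and differences between effects were interactions or, in RNA, direct contrasts of mutants. Printed CPM values are counts over the library total, except those of genes of the other lists, which are scaled with TMM factors, and per-length levels divide them by the union of coding bases in Gencode M21. Marker lists were summed over library totals. Tests were tried on simulated data first.

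The 10 genes and all lists were chosen with earlier results of these data known. Named are all 10 genes, the targeted genes, of other lists up to 4 genes per comparison with the largest change among called genes of at least 5 CPM, and the 5 genes most like *Eln*. *Gadd45b* and transcripts were named after their values were seen. Alternatives were DESeq2 1.42.0, RLE factors, other filters, the replicate number as a block, protein-coding transcripts alone, all RNA libraries in 1 fit, summed controls and leaving out each library. Footprints carry no molecular identifiers, so counts are not independent molecules. Replicates are separate samples per the labels.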

Additional observations from a re-analysis of the deposited data

Results flagged for a closer look

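The changes listed here differed between groups by a test of the difference itself, the quasi-likelihood test of edgeR with p adjusted after Benjamini and Hochberg, and are given as log2 differences. Between the footprint effects of *Pelo* and *Hbs1l* in MEFs, *Mfap5* (0.849) and *Efemp2* (0.317) were higher with *Pelo*, and *Efemp1* (-0.764) and *Fbln5* (-0.702) lower. Between the *Hbs1l* effect in embryos and that in MEFs, *Fbn2* (-1.38), *Mfap4* (-0.884) and *Fbn1* (-0.795) were lower in embryos.

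In RNA, libraries labelled *Upf2*-/- were lower than *Hbs1l*-/- MEFs for *Eln* (-1.98), *Mfap4* (-1.05), *Fbn2* (-0.929), *Mfap5* (-0.664), *Fbln5* (-0.525), *Loxl1* (-0.455) and *Efemp2* (-0.447). The calls for *Fbn2*, *Loxl1* and *Efemp2* held under 12, 14 and 14 of 16 alternatives. The same libraries were lower than *Pelo*-/- MEFs for *Fbn1* (-1.23), *Fbn2* (-1.08), *Lox* (-0.788), *Fbln5* (-0.599), *Efemp1* (-0.519), *Mfap5* (-0.446) and *Loxl1* (-0.355), of which the calls for *Loxl1*, *Mfap5* and *Efemp1* held under 3, 6 and 10 of 15 alternatives. No group held 4 or more samples, so that no test for a sample far from the others was made.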

How the results depend on the processing

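Under alternatives, counts of called genes among the 10 stayed within 1.5 times the reported count except as follows. DESeq2 called 2 in cerebella against 0. For *Pelo*-/- RNA, against 1, DESeq2, a mean of at least 5 CPM and protein-coding transcripts alone called 2 each, and every gene with at least 1 count called 3. For RNA with the *Upf2* label, against 4, every gene with at least 1 count called 7. For RNA with the *Upf2* label against *Pelo*-/-, against 7, protein-coding transcripts alone called 4. Of transcripts, against 4, DESeq2 called 16 and every transcript with at least 1 count 2.

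Replicate numbers did not pair the samples, as in each comparison at least 1 pair of same-numbered libraries deviated together with r under 0.1 (lowest r -0.297 to 0.0358). With the number as a replicate block, 3 genes were called for *Pelo*-/- RNA, 7 for RNA with the *Upf2* label and 0 transcripts, and the *Eln* RNA difference in *Pelo*-/- MEFs turned from -0.16 to 0.15. The block also ended the calls for *Eln* and *Mfap4* RNA in *Hbs1l*-/- MEFs, for *Mfap4* between embryos and MEFs, for *Efemp2* TE in *Pelo*-/- MEFs and for *Mfap5* and *Loxl1* RNA between the *Upf2* label and *Pelo*-/-, and *Eln* RNA with the *Upf2* label was called (-0.47).

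Leaving out each library in turn gave 0 to 1 called genes in embryos, 0 to 2 in cerebella, 8 to 8 in *Hbs1l*-/- and 7 to 10 in *Pelo*-/- footprints, 3 to 5 between these effects, 1 to 5 between embryos and MEFs, 2 to 4 in *Hbs1l*-/-, 0 to 5 in *Pelo*-/- and 3 to 6 in *Upf2*-labelled RNA, 4 to 8 and 2 to 7 for the latter against *Hbs1l*-/- and *Pelo*-/-, 3 to 6 for TE in *Pelo*-/- and 0 to 4 transcripts. *Eln* changed sign in some of these fits: it was -0.45 to 0.15 in cerebella (0.15 and 0.051 where turned), -0.033 to 1.11 in *Pelo*-/- footprints, -0.43 to 0.066 in *Pelo*-/- RNA and -0.52 to 0.29 for TE in *Hbs1l*-/- (0.079, 0.083 and 0.29 where turned). With the *Upf2* label its TE was 3.36 to 3.85.

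Of 1037 recomputed values of single genes and transcripts, 892 counted as the same, 121 lost a call, 13 gained one and 8 turned. In tested contrasts, the same meant direction and side of the threshold. The untested *Upf2*-labelled footprints and TE, which hold the values that chose the genes, are among these values. There it meant direction and a move smaller than the larger SD of log2 footprint CPM in mutants or controls. The other 3 values moved further and were *Eln* TE with the *Upf2* label, without RNA control 1 or 3 or *Upf2*-labelled RNA library 2. Fits without 1 library gave 3.36 to 3.85 for it, against 3.58 (SE 0.32). The causes were not tested. In embryos *Eln*, *Mfap5* and *Lox* rest on 0 to 27 footprints per library, and the *Pelo*-/- RNA contrast rests on 2 mutant libraries.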
